A study of Mus musculus with 300 samples.

Results

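The expressed Zfp genes are 235 genes of the adult mouse testis whose names consist of Zfp and a number, the mouse nomenclature for zinc finger proteins. They were chosen by name and by detection, at 1 FPKM or more (fragments per kilobase of transcript, scaled to the mapped fragments of the cell) in at least 30 of 300 spermatogonia, leaving out Zfp36, an mRNA-binding protein of another family. Of 333 matching names, 97 stayed below that number of cells. All 235 genes entered the tests described here because the same 30-cell rule selected the 10411 genes that were tested, out of 23354 gene names. Just inside the rule stood Zfp3 with 30 cells and Zfp27 and Zfp276 with 31 cells each. Just outside it stood Zfp57 and Zfp78 with 29 cells each and Zfp551 with 27 cells.

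The cells were CD9-bright, ID4-EGFP-positive spermatogonia, sorted by flow cytometry from testes of untreated adult mice and captured singly on Fluidigm C1 chips. ID4 is a transcriptional inhibitor of undifferentiated spermatogonia, and in these reporter mice EGFP brightness stands for it. Each cell was placed by its EGFP epifluorescence in 1 of 4 quartiles: Q1 (brightest, 79 cells), Q2 (78 cells), Q3 (71 cells) and Q4 (dimmest, 72 cells). There were 4 preparations with 67, 82, 71 and 80 cells, each from pooled testes of 2 or more mice, and every quartile was present in every preparation. All groups carry the same reporter and passed the same gate, so a group without the reporter was not part of the comparison. The age, strain and zygosity were not given.

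Most Zfp genes encode arrays of C2H2 zinc fingers, in which pairs of cysteines and histidines hold a zinc ion and neighbouring residues read DNA bases. Many also carry a KRAB domain, which recruits TRIM28 and, through it, the H3K9 methyltransferase SETDB1, heterochromatin proteins and histone deacetylases. KRAB zinc finger proteins are best known for silencing transposable elements and protecting imprinted loci, tasks that matter in the germ line, and their genes lie in fast-evolving clusters. A match to a profile of the KRAB domain was found in 135 of the 235 genes, 99 coded for a protein without a match, and Zfp862 had no coding sequence in the annotation. A SCAN domain, a dimerization module, was found in 9 genes. The median number of fingers was 12 in the genes with a KRAB domain and 7 in those without, with at most 36 fingers and with no C2H2 pattern in 8 genes. Of the 235 genes, 51 lay on chromosome 7, 32 on chromosome 17, 18 on chromosome 13 and 18 on chromosome 8.

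The finger-coding DNA is shown for genes that rose with EGFP brightness and hold a finger followed by a conserved linker. It shows what they share and where they differ. Each stretch is 84 bases of the GRCm38 genome, read 5′ to 3′ on the coding strand, and covers the first finger that a conserved linker follows. The capitals mark the codons of the paired cysteines and histidines, and the lower-case bases between them include the codons of the residues that contact DNA. Zfp646, Zfp365 and Zfp330 are not shown: Zfp365 and Zfp330 hold no C2H2 pattern, and Zfp646 has 27 fingers but no match to the linker.
Zfp948, chr17:21587193-21587276, plus strand, exon 6: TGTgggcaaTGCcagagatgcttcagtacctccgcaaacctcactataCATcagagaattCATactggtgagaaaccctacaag
Zfp52, chr17:21560453-21560536, plus strand, exon 5: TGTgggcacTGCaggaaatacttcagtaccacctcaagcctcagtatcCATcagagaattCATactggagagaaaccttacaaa
Zfp808, chr13:62171445-62171528, plus strand, exon 4: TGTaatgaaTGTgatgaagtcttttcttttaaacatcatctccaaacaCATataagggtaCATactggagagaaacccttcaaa
Zfp930, chr8:69228048-69228131, plus strand, exon 4: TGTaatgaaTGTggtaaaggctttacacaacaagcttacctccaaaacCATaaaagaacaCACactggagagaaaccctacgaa
Zfp449, chrX:56363125-56363208, plus strand, exon 5: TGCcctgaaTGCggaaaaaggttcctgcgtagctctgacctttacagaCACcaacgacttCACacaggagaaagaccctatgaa
Zfp637, chr6:117845270-117845353, plus strand, exon 3: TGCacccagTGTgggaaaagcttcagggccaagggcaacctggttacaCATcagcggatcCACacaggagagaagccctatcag
Zfp467, chr6:48438982-48439065, minus strand, exon 5: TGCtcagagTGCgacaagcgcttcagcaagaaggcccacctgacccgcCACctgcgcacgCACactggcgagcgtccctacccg

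The neighbours Zfp948 and Zfp52 had 71 of 84 bases in common in these stretches. Zfp808 and Zfp930, on different chromosomes, had 62 of 84 bases in common. The other pairs shared between 37 and 54 bases.

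Before the comparison, the cells were checked against marker genes. The spermatogonial markers Dazl and Uchl1 were detected in all cells and Ddx4 in 99.6% of cells, averaged over preparation and quartile means. Of the other markers in the list of 12, Sall4, Cd9, Dmrt1 and Zbtb16 were detected in 97.8%, 94.8%, 94.5% and 88.4% of cells. Etv5, Stra8, Ret, Gfra1 and Kit, which mark only some spermatogonia, were detected in 70.5%, 66.6%, 58.1%, 56.5% and 31.1%. Macrophage, peritubular myoid or spermatid marker lists were met by 13 cells (8, 1 and 4 cells), and calls that changed without them are given with the results. Preparation 1 stood apart, with 4363 genes detected per cell against 5564 to 6218 in the other preparations. It held the lowest mean of the 4 preparations for 183 of the 235 Zfp genes (77.9%), a share close to that of all genes tested (76.5%). Read depth is not known from these values, so no counting interval is given.

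Most Zfp transcripts were found in a minority of cells. Averaged over preparation and quartile means, the median Zfp gene was detected in 31.1% of cells and the median gene tested in 47.8%. Counted over all cells, the median Zfp gene was detected in 95 of 300 (31.7%). In 50% of cells or more 55 genes were detected, and 57 genes in under 20%. The most widely detected was Zfp207, which codes for the spindle-assembly protein BuGZ, in 299 cells with a median of 424 FPKM among them. Zfp655 was detected in 297 cells with a median of 172 FPKM. Zfp706 was detected in 287 cells, Zfp318 in 285 cells and Zfp330, which codes for a nucleolar protein, in 283 cells. Below, a level is the mean of log2(FPKM + 1) over the 15 to 22 cells of a quartile in a preparation, and a mean ± SD is over 4 preparations. In these 5 genes, the only one that passed a test was Zfp330. Zfp207 stood at 8.62 ± 0.17 in Q1 and 8.46 ± 0.24 in Q4, and its groups overlapped.

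The share of all genes that passed sets the scale for the comparison of bright with dim cells over all 10411 genes. With limma on the 16 preparation and quartile means, preparation as a block and Benjamini-Hochberg adjustment at 0.05, 283 genes were higher in Q1 than in Q4 (2.72%) and 55 were lower (0.528%). In the trend over the 4 quartiles, expressed per step to the next brighter quartile, 393 genes rose (3.77%) and 77 fell (0.74%). All 4 Q1 means lay above all 4 Q4 means in 457 genes (4.39%) and below them in 152 genes (1.46%).

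Against that scale, 6 of the 235 Zfp genes were higher in Q1 than in Q4 (2.55%) and 0 were lower. In the trend, 10 rose (4.26%) and 0 fell, with the 6 among the 10. Zfp365 is among the 6 and the 10 and Zfp52 among the 10, although both met the 30-cell rule only through their Q1 cells, where they were high. These shares are close to those of all genes. The Q1 minus Q4 count was 4, 2, 4 and 2 without preparation 1, 2, 3 and 4, and the trend count was 6, 5, 5 and 4. With no replicate block, 0 passed between Q1 and Q4 and 3 in the trend. Without the 13 cells that met another marker list, 7 passed between Q1 and Q4: Zfp467 (adjusted p = 0.0330) and Zfp260 (adjusted p = 0.0493) were added, and Zfp365 was lost. Zfp260, named after its values were seen, had an adjusted p of 0.0645 with all cells. At an unadjusted p under 0.05, limma gave 33 Zfp genes higher and 3 lower between Q1 and Q4, and 40 rising and 5 falling in the trend. Over all 10411 genes, the same threshold gave 1252 higher and 450 lower, and 1356 rising and 483 falling. The 4 Q1 means lay above the 4 Q4 means in 13 Zfp genes and below them in 1. The 6 genes were Zfp948, Zfp449, Zfp808, Zfp646, Zfp930 and Zfp365, and Zfp637, Zfp467, Zfp330 and Zfp52 passed in the trend alone with all cells. How firmly these calls hold differed by gene: over 14 other settings (13 for Zfp365), the Q1 minus Q4 call was lost in 2 for Zfp948, 2 for Zfp449, 5 for Zfp808, 6 for Zfp646, 8 for Zfp930 and 12 for Zfp365. The trend call was lost in 5 of 14 for Zfp637, 9 of 14 for Zfp467, 10 of 14 for Zfp330 and 10 of 13 for Zfp52.

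**Figure D1:**
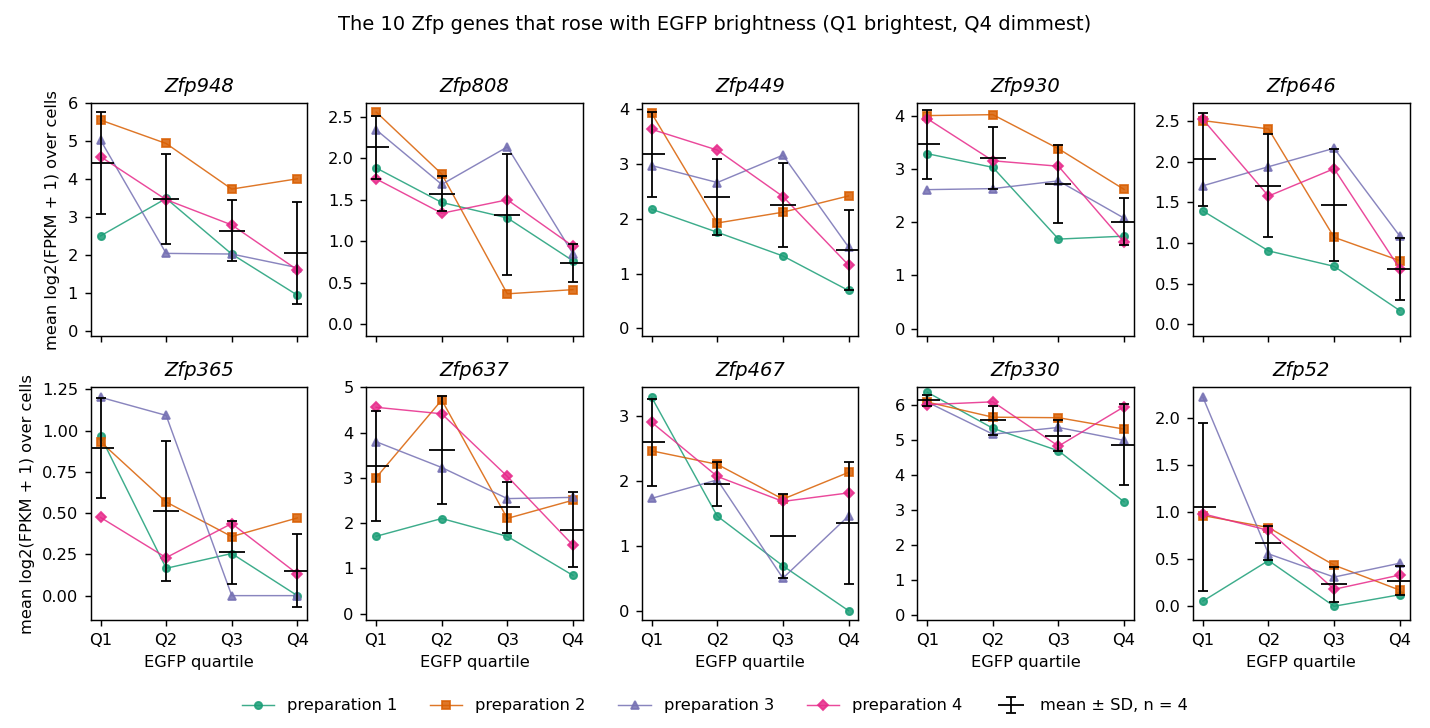
Level (mean log2(FPKM + 1) over cells, y axis) of the 10 Zfp genes that passed, by EGFP quartile (x axis, Q1 brightest), with 1 coloured line per preparation and black bars for the mean ± SD over 4 preparations. Zfp948 averaged 4.41 in Q1 and 2.05 in Q4 and had the largest difference.

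Among genes with a KRAB domain, Zfp948 on chromosome 17 had the largest difference of all 235. Its levels were 2.50, 5.55, 5.02 and 4.58 in Q1 of preparations 1 to 4, against 0.94, 4.002, 1.66 and 1.60 in Q4. Q1 was higher within each preparation, but the groups overlapped because Q4 of preparation 2 lay above Q1 of preparation 1. Zfp948 averaged 4.41 ± 1.34 in Q1 against 2.05 ± 1.34 in Q4 (SD over the 4 preparations), which is a difference of 2.36 (SE 0.44, limma adjusted p = 0.00222). Between them, Q2 stood at 3.48 and Q3 at 2.64, and the trend was 0.79 per quartile (SE 0.14, limma adjusted p = 0.00057). The change lay mainly in how many cells had the transcript. It was detected in 61 of 79 Q1 cells (77.2%) against 26 of 72 Q4 cells (36.1%), with 45 of 78 in Q2 and 29 of 71 in Q3. Among the detecting cells the median was 100 FPKM in Q1 and 80.8 FPKM in Q4. The Q1 minus Q4 call was lost with no replicate block (adjusted p = 0.113) and on the log of mean FPKM (adjusted p = 0.109).

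Zfp52, the KRAB gene next to Zfp948, was much scarcer, with 38 detecting cells. Its Q1 levels were 0.05, 0.96, 2.22 and 0.98 in preparations 1 to 4, against 0.12, 0.17, 0.46 and 0.33 in Q4. Preparation 3 was high in Q1, and preparation 1 did not share the direction. Zfp52 passed in the trend (0.28 per quartile, SE 0.08, limma adjusted p = 0.0361) and not between Q1 and Q4 (adjusted p = 0.0801). Leaving out preparation 2, 3 or 4 ended the trend call, with adjusted p between 0.117 and 0.183. Without preparation 1 it passed between Q1 and Q4 (adjusted p = 0.0452). It was detected in 15 of 79 Q1 cells and 5 of 72 Q4 cells, and only 23 cells outside Q1 had it, so the 30-cell rule was passed through Q1.

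Zfp808, a KRAB gene with 22 fingers on chromosome 13, had Q1 levels of 1.88, 2.56, 2.34 and 1.75, against Q4 levels of 0.76, 0.42, 0.85 and 0.94. The groups did not overlap. It averaged 2.13 ± 0.38 in Q1 against 0.74 ± 0.23 in Q4 (SD over the 4 preparations), which is a difference of 1.39 (SE 0.32, limma adjusted p = 0.0149). It was detected in 32 of 79 Q1 cells and 10 of 72 Q4 cells. Zfp808 shared 43.1% of its 50-base windows with other annotated transcripts, foremost Zfp934, so its reads and those of Zfp934 may have been assigned to either gene. Zfp934 stood at 2.27 ± 0.56 in Q1 and 1.75 ± 0.53 in Q4, a difference of 0.52 that did not pass (limma adjusted p = 0.467). With the number of detected genes as a covariate the adjusted p of Zfp808 was 0.256, and without preparation 2 or 3 it was 0.102 and 0.0741.

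Zfp930, a KRAB gene with 12 fingers on chromosome 8, had Q1 levels of 3.30, 4.02, 2.62 and 3.96, against Q4 levels of 1.74, 2.62, 2.08 and 1.63. Q1 was higher within every preparation, with the groups just touching where Q1 of preparation 3 met Q4 of preparation 2. It averaged 3.47 ± 0.66 in Q1 against 2.02 ± 0.45 in Q4 (SD over the 4 preparations), which is a difference of 1.45 (SE 0.36, limma adjusted p = 0.0230). Detection was 49 of 79 Q1 cells and 24 of 72 Q4 cells, while the median among detecting cells was 58.4 FPKM in Q1 and 77.1 FPKM in Q4. Without preparation 1, 2 or 4 the call was lost, with adjusted p of 0.0691, 0.102 and 0.202.

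Of the genes without a KRAB domain, Zfp449 on the X chromosome carries a SCAN domain and 7 fingers. Its Q1 levels were 2.17, 3.92, 2.97 and 3.63, against Q4 levels of 0.69, 2.42, 1.48 and 1.15. Each preparation had the higher value in Q1, and the groups overlapped through preparations 1 and 2. It averaged 3.18 ± 0.78 in Q1 against 1.44 ± 0.73 in Q4 (SD over the 4 preparations), which is a difference of 1.74 (SE 0.39, limma adjusted p = 0.0106). In contrast to Zfp930, both the detecting cells and their level were higher in Q1: 51 of 79 Q1 cells with a median of 35.4 FPKM, against 24 of 72 Q4 cells with a median of 15.1 FPKM. Without preparation 4 the adjusted p was 0.105.

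Zfp646, with 27 fingers on chromosome 7, had Q1 levels of 1.39, 2.50, 1.70 and 2.52, against Q4 levels of 0.17, 0.78, 1.09 and 0.68. The groups did not overlap. It averaged 2.03 ± 0.57 in Q1 against 0.68 ± 0.38 in Q4 (SD over the 4 preparations), which is a difference of 1.35 (SE 0.32, limma adjusted p = 0.0165). Its exons overlap those of Zfp668 and Prss53 on the opposite strand over 764 bases, and strand use in the counting was not given. Zfp668 stood at 0.82 ± 0.19 in Q1 and 0.72 ± 0.14 in Q4 and did not pass (limma adjusted p = 0.880). Leaving out preparation 1, 2 or 4 ended the call for Zfp646, with adjusted p of 0.0665, 0.087 and 0.124.

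Zfp365 codes for a protein known to bind DISC1 and holds no C2H2 pattern. Its Q1 levels were 0.97, 0.93, 1.20 and 0.47, against Q4 levels of 0.00, 0.47, 0.00 and 0.13. Q4 of preparation 2 reached almost to Q1 of preparation 4, without overlap. It averaged 0.89 ± 0.30 in Q1 against 0.15 ± 0.22 in Q4 (SD over the 4 preparations), which is a difference of 0.74 (SE 0.20, limma adjusted p = 0.0420). It was detected in 19 of 79 Q1 cells and 3 of 72 Q4 cells, and in only 22 cells outside Q1, so it too passed the 30-cell rule through Q1. The call was lost without any one preparation, with adjusted p between 0.0722 and 0.180, and without the 13 cells that met another marker list (adjusted p = 0.0534).

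With all cells, the remaining genes passed in the trend alone. Zfp637 had Q1 levels of 1.71, 3.00, 3.80 and 4.56, against Q4 levels of 0.84, 2.51, 2.57 and 1.51, with Q1 higher in each preparation and the groups overlapping. From Q1 to Q4 the mean levels of Zfp637 were 3.27, 3.62, 2.35 and 1.86 (trend 0.55, SE 0.14, limma adjusted p = 0.0218). The largest drop of the mean lay between Q2 and Q3, as in preparations 2 (4.72 to 2.10) and 3 (3.23 to 2.54). In preparations 1 and 4 the larger drop was from Q3 to Q4 (1.71 to 0.84 and 3.03 to 1.51). Zfp467, known as EZI and for favouring fat over bone differentiation of marrow stromal cells, had mean levels of 2.60, 1.95, 1.15 and 1.35 from Q1 to Q4 (trend 0.45, SE 0.12, limma adjusted p = 0.0326). Its Q1 levels were 3.29, 2.46, 1.73 and 2.90, against Q4 levels of 0.00, 2.13, 1.46 and 1.82, which overlapped. Without preparation 1, where Q1 was at 3.29 and Q4 at 0.00, the trend had a limma adjusted p of 0.304. Without preparation 3 or 4 the adjusted p of Zfp467 was 0.051 and 0.0966. For Zfp637, leaving out preparation 3 or 4 gave 0.077 and 0.233.

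Zfp330 differed from the others because nearly every cell had it. Its levels were 6.36, 6.08, 6.08 and 6.01 in Q1, against 3.23, 5.31, 4.99 and 5.95 in Q4. Q1 was narrow and above every Q4 value, and the low Q4 value came from preparation 1. It averaged 6.13 ± 0.16 in Q1 against 4.87 ± 1.16 in Q4 (SD over the 4 preparations), with a trend of 0.42 per quartile (SE 0.12, limma adjusted p = 0.0349). It was detected in 78 of 79 Q1 cells and 65 of 72 Q4 cells. Without preparation 1 its trend had an adjusted p of 0.283, without preparation 2 of 0.0739 and without preparation 3 of 0.0963. It was also lost with centring (adjusted p = 0.0707), when the number of detected genes was a covariate (adjusted p = 0.292) and with no replicate block (adjusted p = 0.147).

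**Figure D2:**
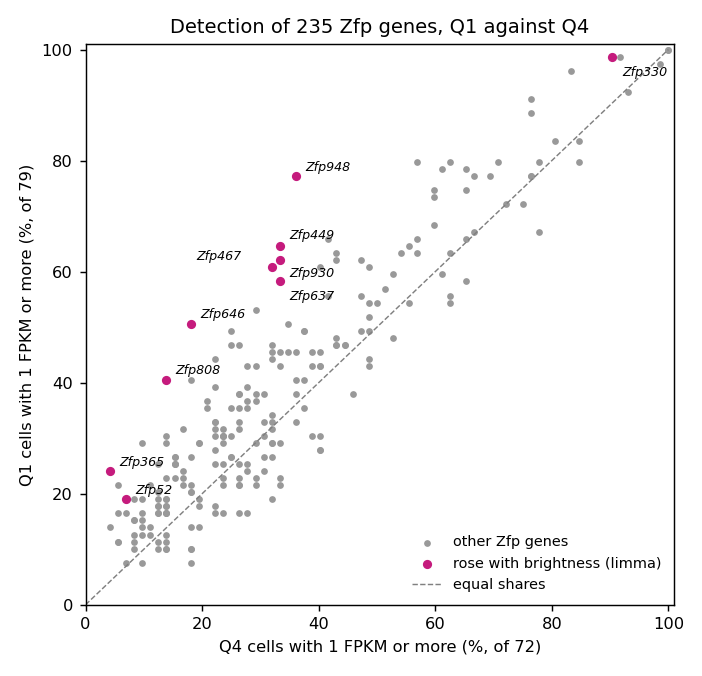
Percent of cells with 1 FPKM or more in Q1 (y axis) against Q4 (x axis) for each of the 235 Zfp genes, with the 10 that passed in magenta and the dashed line at equal shares. Zfp948 lies farthest above the line, at 77.2% of Q1 cells and 36.1% of Q4 cells.

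The set as a whole is given as a description, with no test. The median Q1 minus Q4 difference was 0.20 over the 235 Zfp genes and 0.10 over all genes tested, and 165 of 235 Zfp differences were positive (70.2%) against 6207 of 10411 (59.6%). The differences ranged from -0.98 to 2.36. By preparation, the Zfp median was 0.16, 0.37, 0.34 and 0.11, and that of all genes was 0.10, 0.21, 0.16 and -0.06. Centring each of the 16 means on its median gene moved the median of all genes to -0.08 and that of the Zfp genes to 0.02. The Zfp genes are also expressed at lower levels than the average gene (median level of 1.40 against 2.08 in Q1), and the part of this in the median difference was not tested. For 36 Zfp genes the 30-cell rule was met only through their highest quartile, Q1 for 15 of them. The part of this selection was not tested either.

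With a KRAB domain, 102 of 135 genes had a positive difference (75.6%, median 0.26), 3 passed between Q1 and Q4 (2.22%) and 4 in the trend (2.96%). Without one, 62 of 99 genes were positive (62.6%, median 0.17), 3 passed between Q1 and Q4 (3.03%) and 6 in the trend (6.06%). Over all genes tested, 59.6% were positive, 2.72% were higher in Q1 than in Q4 and 3.77% rose in the trend. After centring, the median was 0.08 with and -0.01 without a KRAB domain, so the direction of the second group depended on the scaling. The 22 genes that shared 20% or more of their 50-base windows with other transcripts had a median of 0.50, with 18 of 22 positive, against 0.18 and 147 of 213 for the rest. Whether these genes share reads or rise together was not tested. Zfp808 was the one of the 22 that passed (4.55%, against 2.72% of all genes between Q1 and Q4). Next in size came Zfp534 at 1.12 and Zfp708 at 0.99, named after their values were seen, which did not pass (limma adjusted p = 0.160 and 0.211).

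**Figure D3:**
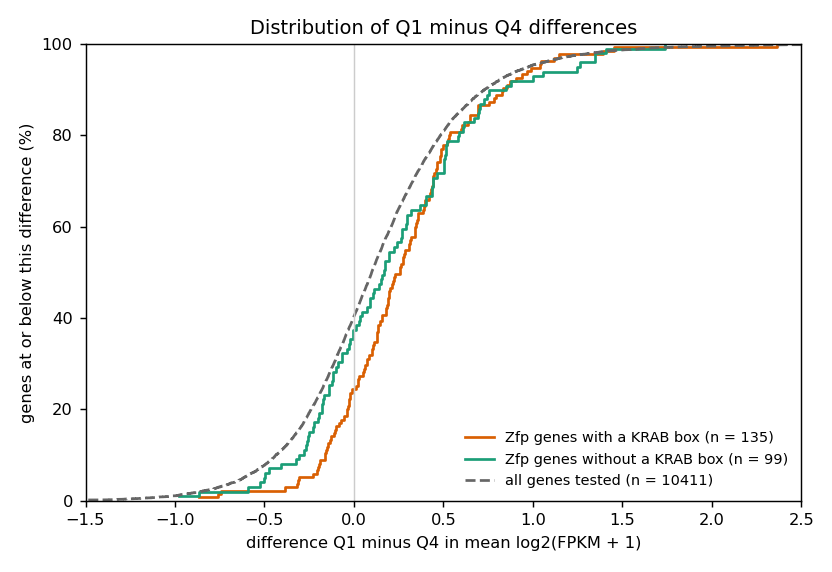
Cumulative percent of genes (y axis) at or below each Q1 minus Q4 difference in mean log2(FPKM + 1) (x axis) for 135 Zfp genes with a KRAB domain, 99 without and all 10411 genes tested. The curve of the KRAB genes crosses the middle of the axis at 0.26, to the right of the curve of all genes at 0.10.

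Zfp948 and Zfp52 lie in a run of 16 KRAB genes on chromosome 17, between Zfp160 and Zfp40 (GRCm38, chr17:21008903-23193252), which was picked out after their values were seen. In it, 12 of 16 differences were positive (75%), with a median of 0.23. Over all 235 Zfp genes the values were 70.2% and 0.20, and over all genes tested 59.6% and 0.10. Zfp948 and Zfp52 passed in the trend and the other 14 did not. Their share of 12.5%, beside 3.77% of all genes tested, comes from a run picked for them and was not tested. Zfp52 met the 30-cell rule only through Q1, where it was high. Zfp945, also in the run, stood at 1.95 ± 0.21 in Q1 and 1.01 ± 0.47 in Q4, with Q1 higher in 4 of 4 preparations, and did not pass (limma adjusted p = 0.0908). Zfp943 differed by 0.75 (adjusted p = 0.248). Zfp677 differed by -0.32 (adjusted p = 0.620).

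**Figure D4:**
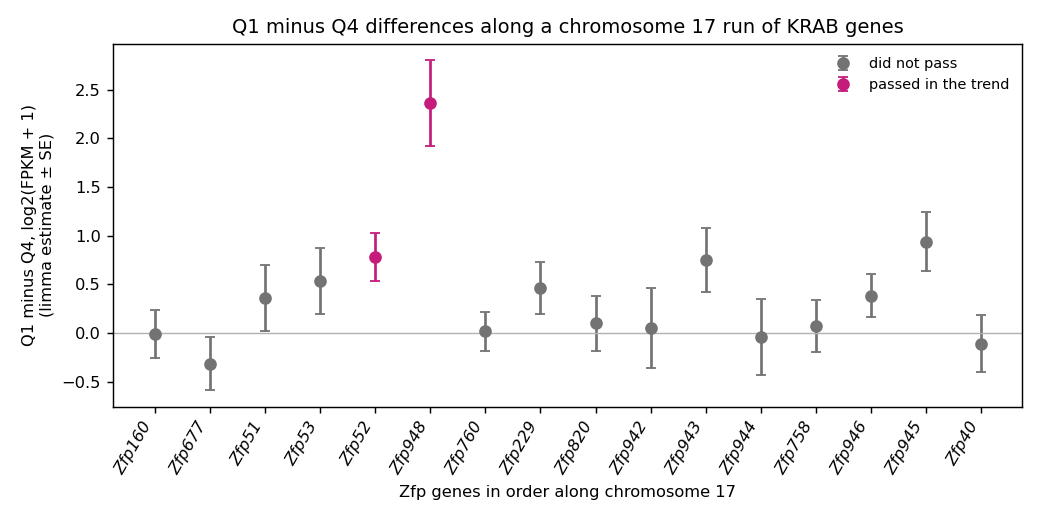
Q1 minus Q4 difference in mean log2(FPKM + 1) with its SE from limma (y axis) for the 16 KRAB Zfp genes of the chromosome 17 run, in their order along the chromosome (x axis). Zfp948 stands at 2.36 and its neighbour Zfp52 at 0.78, and the other 14 genes lie between -0.32 and 0.94.

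No Zfp gene passed as lower in Q1 or as falling in the trend, where 0.528% and 0.74% of all genes tested did. A negative Q1 minus Q4 difference was found in 70 of the 235. The genes with the most negative differences were Zfp639, Zfp259, Zfp81, Zfp12, Zfp688 and Zfp397. Zfp639 stood at 2.32 ± 1.22 in Q1 and 3.29 ± 0.74 in Q4, lower in Q1 in all preparations, with a difference of -0.98 (limma adjusted p = 0.258). Zfp259, an older name of Zpr1, whose product binds the translation factor eEF1A, stood at 3.20 ± 0.85 in Q1 and 4.07 ± 0.32 in Q4 (limma adjusted p = 0.325). Zfp12, a KRAB gene, had the smallest adjusted p of the 6. It stood at 0.76 ± 0.39 in Q1 and 1.53 ± 0.63 in Q4, lower in Q1 in all preparations (limma adjusted p = 0.123). The other three had differences of -0.87 for Zfp81, -0.74 for Zfp688 and -0.59 for Zfp397, with limma adjusted p of 0.385, 0.274 and 0.490.

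A panel of 28 Zfp genes with known roles was also read out, of which 24 were expressed by the 30-cell rule. None of the 24 passed in Q1 minus Q4, where 2.72% of all genes tested were higher and 0.528% lower. None passed in the trend, where 3.77% of all genes rose and 0.74% fell. With shares this small, few calls among 24 genes could be looked for. Of the 24 differences 16 were positive and 8 negative, and 59.6% of all genes tested were positive. Zfp57, which with its KRAB domain protects imprinted methylation, was detected in 29 cells, just below the rule. Zfp445, which shares that role, was detected in 106 cells and stood at 1.54 ± 0.19 in Q1 and 1.43 ± 0.68 in Q4. Zfp809, the KRAB protein that silences murine leukaemia proviruses, was detected in 34 cells, at 0.63 ± 0.46 in Q1 and 0.86 ± 0.38 in Q4. Zfp568, a KRAB repressor of a placental Igf2 transcript, differed by -0.31 (limma adjusted p = 0.686).

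Among the pluripotency-linked genes of the panel, Zfp42, known as Rex1, was detected in 71 cells. It stood at 1.39 ± 0.23 in Q1 and 0.99 ± 0.32 in Q4 (limma adjusted p = 0.518). Zfp281, a regulator of pluripotent cells, was detected in 244 cells and stood at 4.16 ± 0.23 in Q1 and 3.73 ± 0.49 in Q4, higher in Q1 in 4 of 4 preparations (limma adjusted p = 0.618). Zfp462, a chromatin protein with 33 fingers, stood at 2.41 ± 0.29 in Q1 and 1.91 ± 0.63 in Q4, also higher in 4 of 4 preparations (limma adjusted p = 0.461). Zfp296 differed by -0.12 and Zfp148 by 0.44.

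Of the panel genes tied to the germ line, Zfp541, a partner of KCTD19 in meiosis, was detected in 52 cells and differed by 0.17. Zfp318, described as a testicular zinc finger protein that binds the androgen receptor, stood at 4.82 ± 0.22 in Q1 and 4.50 ± 0.35 in Q4 (limma adjusted p = 0.717). Zfp37, first described in testis, differed by 0.34 and Zfp105 by 0.50. Zfp143, an activator at promoters and chromatin loop anchors, had the largest difference of the panel, 0.70, at 2.45 ± 0.91 in Q1 and 1.76 ± 0.74 in Q4 (limma adjusted p = 0.446). The smallest adjusted p of the panel was 0.446. The neural factors Zfp521 and Zfp423 were detected in 25 and 4 cells, below the rule.

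The proteins through which KRAB genes act were tested as a list of 25 genes, of which 24 were among the genes tested. Chd4, the helicase of the NuRD deacetylase complex, alone was higher in Q1 (4.17% of the 24, against 2.72% of all genes tested). In the list 0 were lower, against 0.528% of all genes tested. In the trend 1 of the 24 rose (4.17%, against 3.77%) and 0 fell (against 0.74%). Chd4 stood at 5.34 ± 0.94 in Q1 against 3.94 ± 0.59 in Q4 (SD over the 4 preparations). The difference was 1.40 (SE 0.33, limma adjusted p = 0.0168). Chd4 did not pass between Q1 and Q4 without preparation 2, 3 or 4, with no replicate block or with detected genes as a covariate. It also did not pass on log2 of mean FPKM or on the share of cells detected. At an unadjusted p under 0.05, 2 of the 24 were higher and 1 was lower, beside 1252 higher and 450 lower of all 10411 genes. Trim28 itself stood at 5.28 ± 0.46 in Q1 and 5.43 ± 0.41 in Q4 (adjusted p = 0.879), and Setdb1 at 4.09 ± 0.55 in Q1 and 3.43 ± 0.52 in Q4 (adjusted p = 0.347). The median difference of the list was 0.01. Morc2a had the most negative difference, -0.90 (adjusted p = 0.291).

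Counted per cell, between 35 and 139 of the 235 Zfp genes were detected, with a median of 85.5. The number per cell followed the number of other genes detected, with Pearson's r of 0.936 over 300 cells and 0.848 to 0.928 within preparations. Both numbers come from the same library and share its depth, so r is a description. Preparation means were 60.6, 91.9, 86.4 and 98.6 Zfp genes.

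By quartile, cells of Q1 had 68.2, 99.9, 95.4 and 99.1 Zfp genes in preparations 1 to 4, and cells of Q4 had 58.9, 82.4, 78.2 and 93.5. Q1 was higher within each preparation, and the groups overlapped because of preparation 1. From Q1 to Q4 the means were 90.7 ± 15.1, 85.2 ± 18.7, 83.4 ± 19.4 and 78.2 ± 14.4 (SD, n = 4). The difference between Q1 and Q4 within preparations was 12.4 ± 5.91 genes. It amounts to 5.29 ± 2.51 percentage points of the 235 Zfp genes, against 3.12 ± 3.23 points of all genes tested. In preparation 4 the 2 measures parted, with 2.39 points more of the Zfp genes and 1.48 points fewer of all genes in Q1 (a difference of -1.48).

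As a share of all tested genes detected in a cell, Zfp genes made up 1.63 ± 0.09% in Q1 and 1.50 ± 0.07% in Q4. This difference of 0.136 ± 0.024 percentage points was positive in 4 of 4 preparations. Of the summed FPKM of a cell, Zfp genes made up 0.991 ± 0.067% in Q1 and 0.837 ± 0.031% in Q4, again with Q1 higher in 4 of 4 preparations. These are sums over members chosen by detection and were not tested. For 36 Zfp genes the 30-cell rule was met only through their highest quartile, which was Q1 for 15 of them. The share was also lower in preparation 1, with the fewest genes detected, at 1.42% against 1.60% to 1.64% in the others. Within preparations 1 to 3 the higher share in Q1 came with more of all genes detected, and in preparation 4 with fewer. The part of the 30-cell rule and of detection in the differences between Q1 and Q4 was not tested.

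**Figure D5:**
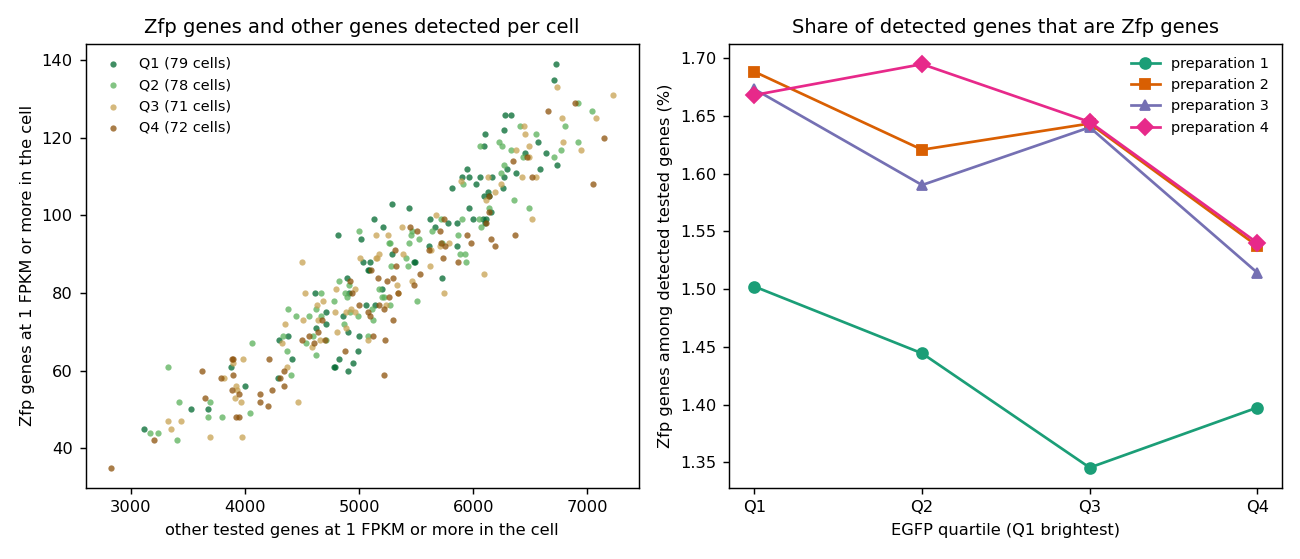
Left, Zfp genes detected (y axis) against other tested genes detected (x axis) in each of 300 cells, coloured by EGFP quartile. Right, Zfp genes as a percent of the tested genes detected (y axis, not starting at 0) by quartile (x axis), 1 line per preparation, with means of 1.63% in Q1 and 1.50% in Q4.

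Markers of other cells were read beside these results. The spermatid marker Tnp1 was higher in Q1, at 3.80 ± 0.46 against 1.99 ± 0.69 in Q4 (limma adjusted p = 0.0138). The summed level of the 7 spermatid markers, all of them above 0, ranged from 5.19 to 8.06 in Q1 and from 2.32 to 6.93 in Q4. The summed level of the 7 pachytene markers, all above 0 as well, ranged from 5.29 to 7.68 in Q1 and from 4.402 to 5.46 in Q4. Tnp1 was alone among 13 tested markers of the lists of other cell types to differ with adjusted p under 0.05 between Q1 and Q4, and the part of both lists in the Zfp results was not tested.

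The promoters were read from RefSeq (GRCm38.p6), which had windows of 250 bases before to 50 after the start for 189 of the 235 genes, 238 windows in all. The promoter of Zfp948 is shown because this gene changed most. That of Zfp330 is shown because, of the Zfp genes that passed in the trend, it was detected in the most cells. Capitals mark matches to the motifs searched on both strands: CCAAT, the GC box GGGCGG, the E-box CACGTG and the ETS core CCGGAAG, none of which contains another.
Zfp948, chr17:21566728-21567027, plus strand: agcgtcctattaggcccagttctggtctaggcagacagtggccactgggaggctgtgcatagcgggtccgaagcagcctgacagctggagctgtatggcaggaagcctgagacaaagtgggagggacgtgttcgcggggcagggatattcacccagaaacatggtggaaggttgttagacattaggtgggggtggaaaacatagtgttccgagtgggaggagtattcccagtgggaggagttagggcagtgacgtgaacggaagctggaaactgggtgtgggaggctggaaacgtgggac
Zfp330, chr8:82774096-82774395, minus strand: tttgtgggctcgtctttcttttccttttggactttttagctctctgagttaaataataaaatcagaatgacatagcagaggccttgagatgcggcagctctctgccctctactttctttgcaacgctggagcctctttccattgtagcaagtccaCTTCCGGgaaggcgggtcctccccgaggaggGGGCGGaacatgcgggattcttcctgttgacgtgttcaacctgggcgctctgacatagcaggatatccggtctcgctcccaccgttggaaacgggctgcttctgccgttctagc

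The Zfp948 window held no match, and the Zfp330 window held an ETS core on the opposite strand and a GC box. Among the 238 Zfp windows, 48.3% held CCAAT, against 39.2% of the 10016 windows of tested genes and 37.4% of all 32851 windows. The GC box was in 46.2% of Zfp windows, against 65.01% of windows of tested genes and 35.7% of all. The ETS core was in 22.3% of Zfp windows, against 19.3% of windows of tested genes and 8.86% of all. CACGTG was in 7.56% of Zfp windows, against 10.9% of windows of tested genes and 7.15% of all. Mean GC content was 56.7% in the Zfp windows and 53.8% in all windows. It was not worked out for the windows of tested genes.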

How the data were processed

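The deposited matrix gives 1 value per gene name and cell for 300 cells; the values are read as FPKM made by the authors with Cufflinks, since the submitters' processing notes name FastQC, TopHat, Cufflinks and Picard and the builds mm10 and GRCm38, and the file header names no unit. Column sums of 348305 to 682985 differ between cells, and read depth is not given. The preparation was taken from the number in the sample title and the quartile from the labels. Levels are means of log2(FPKM + 1) over cells, 16 in all. They were fitted by limma 3.58.1 (R 4.3.3) with preparation as a block and eBayes with trend and robust. Tests were two-sided, with Benjamini-Hochberg adjustment over 10411 genes and a threshold of 0.05. The fit was first run on simulated normal values without preparation effects, so that run does not check the block or scarce genes. The numbers pair the quartiles because all quartiles of a preparation come from the same pooled mice. Deviations from the quartile means correlated within preparations (24 pairs, 0.011 to 0.360, median 0.129). Between preparations the median was -0.043, which follows from the centring, because the deviations of a quartile cancel out over the preparations. Preparation is the replicate, not the cell.

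Gene models, fingers and window sharing come from GENCODE transcripts of GRCm38 (231 members matched by symbol, 4 by an older symbol), KRAB domains from a profile search (pyhmmer 0.12.3, E under 0.001) built from regular-expression matches in these proteins. The members, the panel and the corepressor list were chosen with earlier results of these data known. Named genes are those past the threshold, the 6 largest and 6 most negative differences, the 5 in most cells, 3 on either side of the 30-cell rule, and the panel. Alternatives were a pseudocount of 0.1, no filter, a filter of 60 cells, no block, centring, detected genes as a covariate, log2 of mean FPKM, share of cells detected, leaving out cells of other types, limma without trend and robust, and leaving out each preparation.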

Additional observations from a re-analysis of the deposited data

Results flagged for a closer look

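In 5 of 114 groups of 4 preparations examined, 1 preparation stood far from the other three, a share (4.39%) near the 1 in 20 that chance gives. In Q1, Zfp318 of preparation 1 stood at 4.50, below 4.90 to 4.95 in the other preparations. In Q1, Zfp809 of preparation 1 stood at 1.32, above 0.35 to 0.49 in the others. In Q4, Zfp105 of preparation 2 stood at 3.08, above 2.29 to 2.30. In Q4, Zfp143 of preparation 4 stood at 2.85, above 1.29 to 1.51, and this is the gene with the largest difference of the panel. The number of Zfp genes detected per Q1 cell was 68.2 in preparation 1, below 95.4 to 99.9 in the others, and that preparation was also low in genes detected in general.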

How the results depend on the processing

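Of the 6 Zfp genes higher in Q1 than in Q4, 0 were called with no replicate block, 2 with detected genes as a covariate, 1 on log2 of mean FPKM and 2 to 4 when a preparation was left out. Of the 10 in the trend, 5 were called with no filter, 3 with no replicate block, 4 with the covariate, 2 on log2 of mean FPKM, 6 by limma without trend and robust and 4 to 6 when a preparation was left out. The corepressor count of 1 was 0 with no replicate block, with the covariate, on log2 of mean FPKM and on the share of cells detected, and 0 to 1 when a preparation was left out. The number of Zfp genes detected per cell was 10.7 to 14.7 higher in Q1 over its 7 alternatives. The causes were not tested. None of the 10 called genes changed direction. Among the named genes that did not pass, the sign of the Q1 minus Q4 difference turned in these cases. Centring gave -0.0254 for Zfp207, -0.0033 for Zfp276, -0.0634 for Zfp445, -0.0050 for Zfp541 and -0.0085 for Zfp711. The covariate gave -0.0227 for Zfp207, -0.0636 for Zfp281 and -0.22 for Zfp711. A pseudocount of 0.1 gave 0.11 for Zfp3, and log2 of mean FPKM gave 0.0899 for Zfp568 and -0.13 for Zfp335. The share of cells detected gave 5.55 points for Zfp3, -1.03 points for Zfp281 and -5.28 points for Zfp711. Leaving out preparation 1 gave 0.0081 for Zfp706, 0.16 for Zfp3, -0.20 for Zfp445 and 0.0796 for Zfp296. Leaving out preparation 3 gave -0.11 for Zfp335 and 0.0251 for Zfp451. Leaving out preparation 4 gave 0.0094 for Zfp706, 0.0922 for Zfp3, 0.11 for Zfp296, -0.0028 for Zfp217 and 0.0659 for Zfp644. With 4 preparations of 15 to 22 cells per quartile and unknown depth, scarce genes such as Zfp365 and Zfp52 rest on few cells.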
